A study of Homo sapiens with 12 samples.

Results

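A set of 9 genes from the peptide loading branch of the MHC class II pathway and its RFX transcription factor was followed in Raji cells. Raji is an established B-cell line from a human Burkitt lymphoma, a tumour with the character of germinal centre B cells. The genes were chosen by symbol, as HLA-DMA, HLA-DMB, HLA-DOA, HLA-DOB, IFI30, CTSS, RFX5, RFXAP and RFXANK, and all 9 were found among the 60707 gene records of the count table and passed the filter on low counts. The 4 groups of 3 libraries each were GFP-low cells given FX1, GFP-low cells given DMSO, GFP-high cells given FX1 and GFP-high cells given DMSO, all collected at 24 h. FX1 is a small molecule that blocks BCL6, a repressor of transcription on which germinal centre B cells depend, and DMSO is its vehicle. The titles call the DMSO libraries untreated, and no FX1 dose was given in the sources used here. Every group carried the label Smarca4+/+ and belonged to a line with an auxin-inducible degron for SMARCA4 (BRG1), an ATPase that drives SWI/SNF chromatin remodelling. The labels do not say how the GFP gates relate to the amount of SMARCA4 protein, whether the line is a single clone, or whether replicate libraries stem from separate cultures. The p-values therefore rest on library-to-library spread alone, part or all of which may be technical.

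MHC class II molecules leave the endoplasmic reticulum bound to the invariant chain CD74, which endosomal proteases trim to a fragment called CLIP. Cathepsin S (CTSS) carries out a late step of that trimming, GILT (IFI30) reduces disulfide bonds of engulfed proteins, and HLA-DM, a dimer of HLA-DMA and HLA-DMB, exchanges CLIP for antigenic peptides. HLA-DO, a dimer of HLA-DOA and HLA-DOB found mainly in B cells, binds HLA-DM and holds it back, and B cells in germinal centres are known for low HLA-DO. RFX5, RFXAP and RFXANK form the complex that binds the X box of class II promoters and, together with NF-Y at the Y box and the coactivator CIITA, switches these genes on. Inherited loss of any of these RFX subunits causes bare lymphocyte syndrome, in which class II molecules are missing from cells.

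The 4 peptide editor genes lie in the class II region of chromosome 6 on the minus strand. The stretches upstream of their RefSeq starts (GRCh38.p14) are shown as a description, and a link between these letters and the FX1 changes was not tested. Each window covers bases -140 to -31 from the start, 110 bases, read 5′ to 3′ on the gene's strand. Capitals mark motif matches on the gene's strand only. The motifs are AGNNAC, a loose form of the site that RFX proteins bind, and TGATGATG. ATTGG, the reverse complement of the CCAAT box bound by NF-Y, is marked too. Matches on the opposite strand are not marked, among them an ATTGG match and an AGNNAC match in the HLA-DOB window. The windows lie at chr6:32953128-32953237 for HLA-DMA, chr6:32941059-32941168 for HLA-DMB, chr6:33009622-33009731 for HLA-DOA and chr6:32817033-32817142 for HLA-DOB.
HLA-DMA: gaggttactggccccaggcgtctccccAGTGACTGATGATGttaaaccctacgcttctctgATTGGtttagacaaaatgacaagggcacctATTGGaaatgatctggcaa
HLA-DMB: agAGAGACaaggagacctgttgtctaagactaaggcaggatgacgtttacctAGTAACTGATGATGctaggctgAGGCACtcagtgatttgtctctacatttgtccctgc
HLA-DOA: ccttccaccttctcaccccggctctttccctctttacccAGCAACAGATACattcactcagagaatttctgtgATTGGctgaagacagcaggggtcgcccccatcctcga
HLA-DOB: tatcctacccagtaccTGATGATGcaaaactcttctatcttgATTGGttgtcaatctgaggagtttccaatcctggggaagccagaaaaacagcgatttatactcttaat

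Matches were sought on both strands of the 300 bases from 250 before to 50 after each start. AGNNAC followed on the same strand by ATTGG, with 20 to 35 bases between them, occurred at HLA-DMA and HLA-DOA and at 2.5% of all 35116 promoters. At HLA-DMA the gap was 28 bases, and HLA-DOA had a pair of adjoining AGNNAC matches before its ATTGG. TGATGATG, a motif chosen after these promoters had been read, occurred at HLA-DMA, HLA-DMB and HLA-DOB and at 0.94% of all promoters. In HLA-DMA and HLA-DMB it directly adjoined an AGNNAC match. AGNNAC alone was present in 86.5% of all promoters and ATTGG alone in 34.6%. The promoters of IFI30, RFX5, RFXAP and RFXANK held neither the spaced pair nor TGATGATG, which says only that these letters were not in those windows.

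The other members lie outside that region. IFI30 (ENSG00000216490.4) is on chromosome 19 at 18173162 to 18178117 and RFXANK (ENSG00000064490.14) on the same chromosome at 19192229 to 19201869, both on the plus strand in hg38. CTSS (ENSG00000163131.12) and RFX5 (ENSG00000143390.18) are on the minus strand of chromosome 1, at 150730079 to 150765957 and 151340640 to 151347326. RFXAP (ENSG00000133111.4) is on the plus strand of chromosome 13 at 36819222 to 36829104. The editors span chromosome 6 at 32948613 to 32969094 for HLA-DMA (ENSG00000204257.15), 32934629 to 32941028 for HLA-DMB (ENSG00000242574.9), 33004182 to 33009591 for HLA-DOA (ENSG00000204252.14) and 32812763 to 32820466 for HLA-DOB (ENSG00000241106.8). Some exons are shared with other genes, and the strand setting of the counting is not given in the sources used here. RFXANK shares 363 exon bases (14.5% of its own) with BORCS8 and 221 (8.8%) with NR2C2AP, both on the opposite strand. BORCS8 and NR2C2AP drew at most 671 and 749 counts in a library, beside 395 to 1566 for RFXANK itself. HLA-DMA shares 55 exon bases (2.2%) with BRD2 on the opposite strand, a gene with 8334 to 22577 counts per library. RFX5 shares 358 exon bases (7.9%) with an opposite-strand record that drew at most 2 counts in a library. It also shares 93 (2.0%) with RFX5-AS1, again on the opposite strand, which drew 24 to 80. How far such overlaps touch the levels was not measured. IFI30 and HLA-DOB share 42.5% and 30.4% of their exon bases with readthrough records on the same strand that drew at most 7 and 3 counts in any library. HLA-DMB and HLA-DMA share 9.5% and 6.3% of theirs with a same-strand record that drew at most 4 counts. How reads in shared bases were assigned is not given in the sources used here. The low counts therefore do not show that the members kept those reads.

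The libraries held 20454028 to 42556661 gene counts. Paired replicates varied 1.7 to 2.01 times as much as random sampling of reads would give, and edgeR's common coefficient of biological variation was 1.67%, so very small differences passed the test. Mitochondrial genes took 5.05% to 5.13% of counts in GFP-low FX1 libraries, 4.72% to 4.84% in GFP-low DMSO libraries, 4.23% to 4.32% in GFP-high FX1 libraries and 7.84% to 7.91% in GFP-high DMSO libraries. The 8 B-cell markers summed to 2000 to 2010 CPM (counts scaled to the TMM-adjusted total of the library) in GFP-low FX1 libraries, 2900 to 2920 in GFP-low DMSO libraries, 2550 to 2570 in GFP-high FX1 libraries and 3440 to 3450 in GFP-high DMSO libraries. Markers of T and NK cells summed to 5.73 to 7.53 CPM with FX1 and 17.6 to 19.7 with DMSO in the GFP-low gate, and to 9.32 to 10 with FX1 and 25.3 to 26.1 with DMSO in the GFP-high gate, with 6 of the 10 genes below 1 CPM on average. Myeloid and dendritic markers reached at most 6.92 CPM in sum, in GFP-low FX1, with 9 of 10 below 1 CPM. Epithelial and stromal markers summed to at most 17.8 CPM, in the same group, where COL1A1 alone averaged 16.3. Of these 8 genes 7 lay below 1 CPM on average, with KRT18, KRT19 and COL3A1 at 0. The B-cell list was split under FX1, with 2 genes higher and 5 lower in GFP-low cells and 3 higher and 4 lower in GFP-high cells. CR2, CD22 and MS4A1 fell in both gates (log2 changes of -1.73, -1.12 and -0.61 in GFP-low cells, and -1.48 for CR2 and -0.28 for MS4A1 in GFP-high cells), whereas CD79A (0.09 in GFP-low, 0.16 in GFP-high) and CD79B (0.42 in GFP-low, 0.39 in GFP-high) rose. Of the 6 T and NK markers tested 5 fell in each gate, among them LCK, which alone averaged 16 CPM in GFP-high DMSO. The part of these shifts in the results below was not tested.

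Per exon length, the members fell into a high and a low tier. In GFP-low FX1 cells the highest were HLA-DMA at 134 ± 0.695 TPM (SD, n = 3), a level scaled by exon length,, RFX5 at 133 ± 2.69 and HLA-DOA at 129 ± 2.51. They were followed by IFI30 at 68.2 ± 4.33 TPM, RFXANK at 49.5 ± 2.33, HLA-DMB at 39.9 ± 1.26, CTSS at 39.6 ± 0.668, RFXAP at 19.2 ± 1.03 and HLA-DOB at 10.6 ± 1.24. Library values overlapped between HLA-DMA and RFX5, between RFX5 and HLA-DOA and between HLA-DMB and CTSS, so these neighbours were not separated. In GFP-low DMSO cells HLA-DMA stood at 180 ± 2.53 TPM, HLA-DOA at 165 ± 1.89 and RFX5 at 152 ± 1.74, and HLA-DOB was again lowest at 21.6 ± 1.75. No neighbours overlapped in that group, where the order between these ends was IFI30, HLA-DMB, RFXANK, CTSS and RFXAP. In GFP-high FX1 cells the order was HLA-DMA (114 ± 3.78 TPM), HLA-DOA, RFX5, CTSS, RFXANK, IFI30, HLA-DMB, RFXAP and HLA-DOB (8.49 ± 0.524), with HLA-DMA and HLA-DOA overlapping and RFXANK and IFI30 overlapping. In GFP-high DMSO cells it was HLA-DMA (138 ± 5.85 TPM), HLA-DOA, RFX5, HLA-DMB, IFI30, CTSS, RFXAP, RFXANK and HLA-DOB (17.3 ± 1.17), and only HLA-DMA and HLA-DOA met, at 134. By their means HLA-DMA was highest and HLA-DOB lowest in all 4 groups, although HLA-DMA was clear of its neighbour only in GFP-low DMSO, while RFXANK and CTSS changed places with their neighbours. TPM divide by the full exon length, so reads lost in shared exons would lower IFI30 and HLA-DOB in these orders. Such a loss was not measured, and the lowest place of HLA-DOB holds only for the counts as given.

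**Figure D1:**
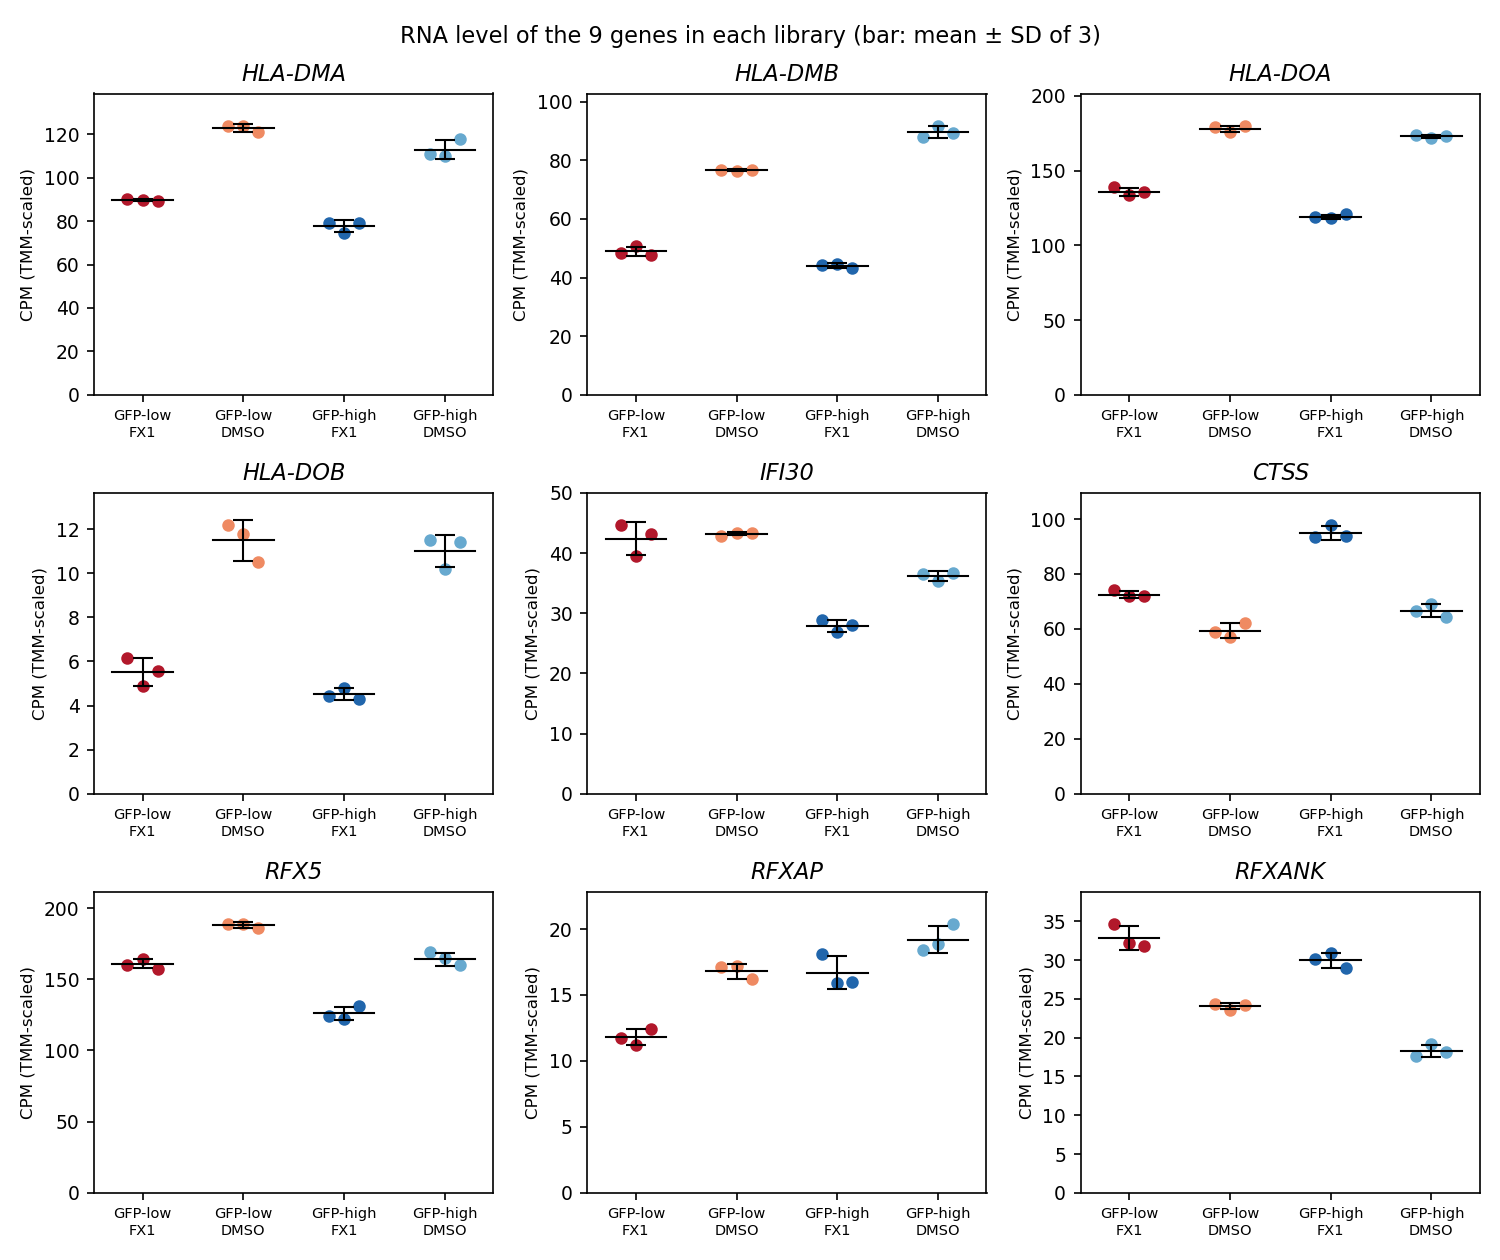
RNA level of each of the 9 genes, in CPM scaled by TMM, in the 3 libraries of each group (points), with the mean and SD (bars); the vertical axes start at 0 and differ between panels. HLA-DMB, for example, averaged 48.9 CPM in GFP-low FX1, 76.6 in GFP-low DMSO, 44.1 in GFP-high FX1 and 89.7 in GFP-high DMSO.

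The comparison of FX1 with DMSO asked what the BCL6 inhibitor changed in each gate. All 4 peptide editor genes fell in both gates, with HLA-DOB and HLA-DMB falling most. CTSS and RFXANK rose in both gates, RFX5 and RFXAP fell, and IFI30 fell in GFP-high cells with no detected change in GFP-low cells. By edgeR's quasi-likelihood test with adjusted p below 0.05, 2 members rose and 6 fell in GFP-low cells, where 68% of all 17859 genes tested were called, 33.7% higher and 34.3% lower. In GFP-high cells 2 rose and 7 fell, where 68.4% of all genes were called, 33.8% higher and 34.6% lower. The median log2 change of the 9 members was -0.38 in GFP-low and -0.39 in GFP-high cells, beside -0.01 over all genes in each gate. The quartiles of all genes were -0.42 and 0.40 in GFP-low and -0.46 and 0.38 in GFP-high cells. Both member medians lay between them. The median absolute change of all genes was 0.41 in each gate. The FX1 and DMSO libraries did not overlap for 8 of the 9 members in GFP-low and for 9 of 9 in GFP-high cells, beside 69.6% and 70.2% of all genes. A call is thus common in these libraries, and the sizes below carry more than the calls. In bulk RNA, fewer cells of a type and less RNA per cell cannot be told apart.

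HLA-DMA, the alpha chain of the editor HLA-DM, had 90.2, 89.8 and 89.1 CPM in GFP-low FX1 libraries, against 124, 124 and 121 in GFP-low DMSO. Its GFP-high values were 79.4, 74.5 and 79.1 CPM with FX1, against 111, 110 and 118 with DMSO. Every FX1 library lay below every DMSO library of its gate, and the log2 changes were -0.45 ± 0.0279 (SE; edgeR adjusted p = 8.53e-40) in GFP-low and -0.54 ± 0.0288 (adjusted p = 1.46e-47) in GFP-high cells. HLA-DMB, the beta chain, had 48.3, 50.7 and 47.8 CPM in GFP-low FX1, against 76.6, 76.2 and 76.8 in GFP-low DMSO. In GFP-high cells its values were 44.3, 44.7 and 43.2 CPM with FX1, against 87.9, 91.8 and 89.4 with DMSO. The groups stood far apart in both gates, and the beta chain fell by 0.65 ± 0.035 on the log2 scale in GFP-low (edgeR adjusted p = 6.19e-47) and by 1.03 ± 0.0348 in GFP-high cells (adjusted p = 1.7e-80), to 0.639 of the DMSO level in GFP-low and 0.49 of it in GFP-high cells.

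HLA-DOA, the alpha chain of the HLA-DM inhibitor HLA-DO, had 139, 134 and 136 CPM in GFP-low FX1, against 179, 176 and 180 in GFP-low DMSO. The GFP-high libraries gave 119, 118 and 121 CPM with FX1, against 174, 172 and 173 with DMSO. The libraries of a group lay within a few CPM of each other and the groups did not overlap, with log2 changes of -0.38 ± 0.0225 in GFP-low (edgeR adjusted p = 2.55e-42) and -0.53 ± 0.0231 in GFP-high cells (adjusted p = 8.81e-62). HLA-DOB, the beta chain of HLA-DO, had 6.17, 4.87 and 5.55 CPM in GFP-low FX1, against 12.2, 11.8 and 10.5 in GFP-low DMSO. In GFP-high cells its values were 4.45, 4.81 and 4.29 CPM with FX1, against 11.5, 10.2 and 11.4 with DMSO. It was the least abundant member, with 121 to 371 counts per library, and the one that fell furthest, to 0.486 of the DMSO level in GFP-low (log2 change -1.04 ± 0.0978, edgeR adjusted p = 3.07e-21) and 0.41 of it in GFP-high cells (-1.29 ± 0.103, adjusted p = 2.99e-27). Across all genes tested, 14.8% had a larger absolute change than HLA-DOB in GFP-low and 11.8% in GFP-high cells. In the same order, these shares were 31.6% and 17% for HLA-DMB, 46.2% and 39.7% for HLA-DMA and 52.6% and 40% for HLA-DOA. Only HLA-DOB, in both gates, and HLA-DMB, in GFP-high cells, were editors whose estimated change reached 2-fold.

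The beta chains thus stood lower relative to their alpha chains in FX1 libraries. The TPM of HLA-DMB over that of HLA-DMA was 0.292, 0.309 and 0.293 in GFP-low FX1, against 0.337, 0.337 and 0.347 in GFP-low DMSO. In GFP-high cells the ratio was 0.305, 0.327 and 0.298 with FX1, against 0.432, 0.457 and 0.413 with DMSO. The ratio of HLA-DOB to HLA-DOA was 0.0821 ± 0.00801 in GFP-low FX1 and 0.131 ± 0.0113 in GFP-low DMSO (SD, n = 3 each), and 0.0768 ± 0.00553 in GFP-high FX1 and 0.13 ± 0.00776 in GFP-high DMSO. None of these 4 FX1 sets overlapped its DMSO set. The alpha chains kept nearly equal levels, with HLA-DOA over HLA-DMA at 0.961 ± 0.0173 in GFP-low FX1, 0.917 ± 0.0204 in GFP-low DMSO, 0.971 ± 0.0252 in GFP-high FX1 and 0.966 ± 0.0369 in GFP-high DMSO. The beta chain of the inhibitor over that of the editor, HLA-DOB over HLA-DMB, was 0.266 ± 0.0375 in GFP-low FX1, 0.352 ± 0.029 in GFP-low DMSO, 0.24 ± 0.0106 in GFP-high FX1 and 0.289 ± 0.0247 in GFP-high DMSO. These ratios are descriptions and were not tested.

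**Figure D2:**
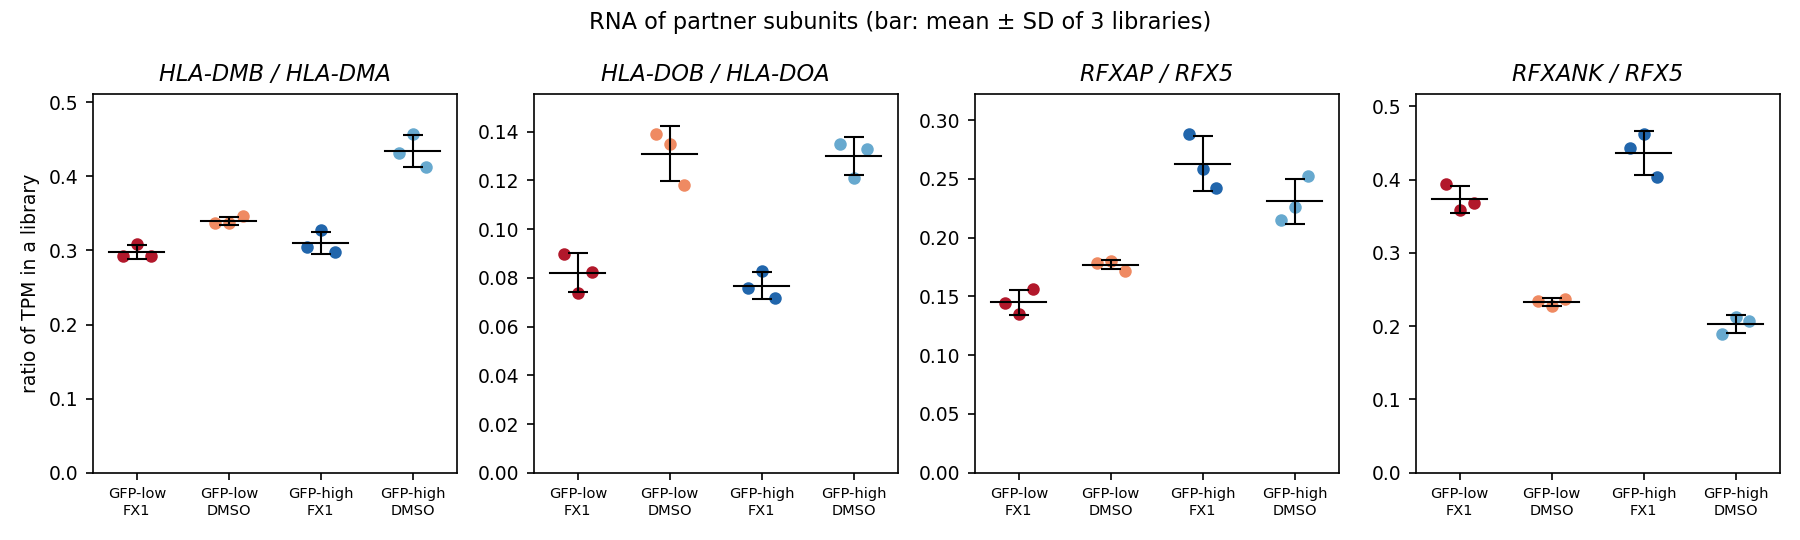
Ratio of the TPM of partner genes in each library (points), with the mean and SD of 3 libraries (bars); axes start at 0. HLA-DMB over HLA-DMA and HLA-DOB over HLA-DOA were lower in FX1 than in DMSO libraries of both gates, and RFXANK over RFX5 was higher.

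Of the processing enzymes, CTSS moved opposite to the editors and IFI30 did not. CTSS, the protease that trims the invariant chain, had 74, 71.8 and 71.8 CPM in GFP-low FX1, against 58.7, 57.1 and 62.3 in GFP-low DMSO. Among GFP-high cells CTSS had 93.3, 97.9 and 93.7 CPM with FX1, against 66.6, 69.2 and 64.5 with DMSO. FX1 libraries were higher without overlap in both gates, and CTSS rose by 0.30 ± 0.0339 on the log2 scale in GFP-low (edgeR adjusted p = 1.87e-15) and by 0.50 ± 0.0323 in GFP-high cells (adjusted p = 1.8e-37). With a trend on GC content and transcript length removed, the GFP-low rise was 0.54. IFI30, the lysosomal thiol reductase, had 44.7, 39.5 and 43.2 CPM in GFP-low FX1, against 42.9, 43.3 and 43.4 in GFP-low DMSO. These sets overlapped, and the log2 change of -0.02 ± 0.0439 (95% interval -0.11 to 0.07, edgeR adjusted p = 0.701) left room for a small change either way. The value was 0.04 without GFP-low FX1 replicate 2, and after removal of the GC and length trend it was -0.14 and passed the test (edgeR adjusted p = 0.00264). In GFP-high cells IFI30 had 28.8, 26.9 and 28 CPM with FX1, against 36.6, 35.3 and 36.7 with DMSO, a fall of 0.37 ± 0.0484 on the log2 scale (edgeR adjusted p = 2.24e-12).

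The RFX subunits did not move as a unit. RFX5, the subunit that binds DNA, had 160, 164 and 157 CPM in GFP-low FX1, against 189, 189 and 186 in GFP-low DMSO. GFP-high libraries of RFX5 stood at 124, 122 and 131 CPM with FX1, against 169, 165 and 160 with DMSO. The groups did not overlap, and RFX5 fell by 0.23 ± 0.0221 in GFP-low (log2, edgeR adjusted p = 4.42e-20) and by 0.39 ± 0.0232 in GFP-high cells (adjusted p = 5.31e-41). RFXAP, the RFX-associated protein, had 11.7, 11.2 and 12.4 CPM in GFP-low FX1, against 17.1, 17.2 and 16.2 in GFP-low DMSO. In GFP-high cells it had 18.1, 15.9 and 16 CPM with FX1, against 18.4, 18.9 and 20.4 with DMSO. The fall was clear in GFP-low cells (log2 change -0.52 ± 0.072, edgeR adjusted p = 1.65e-11), while in GFP-high cells the sets stood close together (-0.20 ± 0.0667, adjusted p = 0.00563). The GFP-high call was lost without GFP-high DMSO replicate 3 (-0.15, edgeR adjusted p = 0.0617) and after removal of the GC and length trend (-0.08, adjusted p = 0.289). RFXANK, the ankyrin repeat subunit, had 34.7, 32.2 and 31.8 CPM in GFP-low FX1, against 24.4, 23.6 and 24.2 in GFP-low DMSO. GFP-high cells had 30.2, 30.9 and 29 CPM with FX1, against 17.6, 19.2 and 18.2 with DMSO. It was higher in every FX1 library, by 0.46 ± 0.0529 in GFP-low (log2, edgeR adjusted p = 1.75e-15) and 0.71 ± 0.0568 in GFP-high cells (adjusted p = 6.23e-27), the GFP-low value being 0.23 after removal of the GC and length trend.

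Relative to RFX5, RFXANK stood at a TPM ratio of 0.373 ± 0.0188 in GFP-low FX1 and 0.233 ± 0.00563 in GFP-low DMSO, and at 0.436 ± 0.0301 in GFP-high FX1 and 0.203 ± 0.0117 in GFP-high DMSO (SD, n = 3 each). RFXAP over RFX5 was 0.145 ± 0.0107 in GFP-low FX1 and 0.177 ± 0.00397 in GFP-low DMSO, with every FX1 library lower. In GFP-high cells it was 0.263 ± 0.0236 with FX1 and 0.231 ± 0.0191 with DMSO, and those libraries overlapped. RFXAP was the subunit with least RNA per length in 3 of the 4 groups, and RFXANK in GFP-high DMSO. How far the exon bases that RFXANK shares with BORCS8 and NR2C2AP touch its levels, changes and ratios was not measured.

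**Figure D3:**
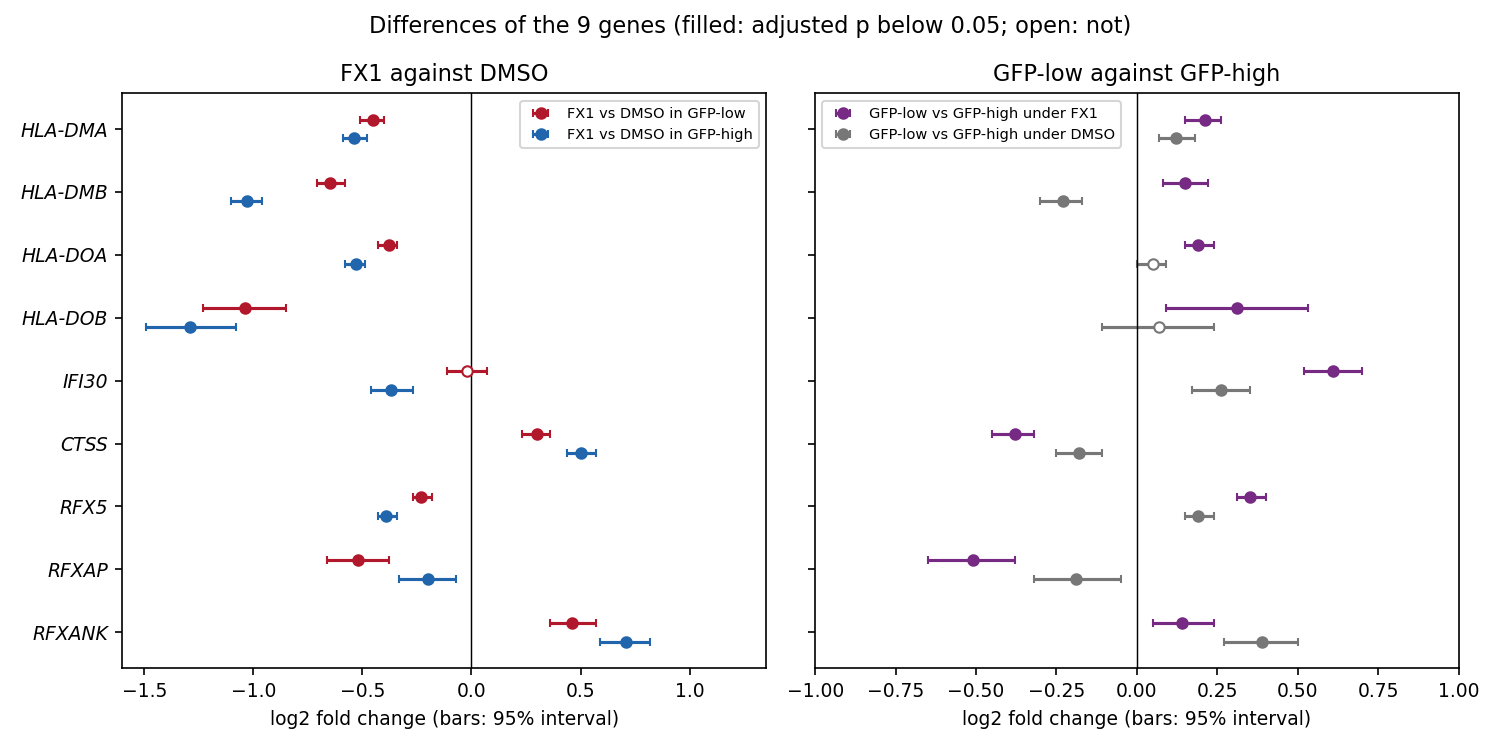
Log2 fold change of each gene with its 95% interval, for FX1 against DMSO in each gate (left) and GFP-low against GFP-high under each treatment (right); filled points had an adjusted p below 0.05. The 4 HLA genes lie left of 0 in both FX1 comparisons, CTSS and RFXANK lie right of it, and the gate differences reach at most 0.61 in size, for IFI30 under FX1.

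Against a floor of 1.5-fold, 1 member passed edgeR's glmTreat in GFP-low cells (HLA-DOB) and 3 passed in GFP-high cells (HLA-DOB, HLA-DMB and RFXANK). Of all genes, 3606 passed that test in GFP-low and 3674 in GFP-high cells. The other members were not shown to change by more than 1.5-fold. Many genes had larger absolute changes than the members that are not editors. In GFP-low and GFP-high cells, these were 97.1% and 54% of all genes for IFI30 and 62.1% and 42% for CTSS. For the RFX subunits they were 70.3% and 52.3% (RFX5), 40.1% and 73% (RFXAP) and 45.5% and 29.1% (RFXANK).

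Other genes of the pathway were counted from lists that were not trimmed by their changes. All 11 genes of classical class II, CD74 and CIITA fell in both gates, with a median log2 change of -0.64 in GFP-low and -0.89 in GFP-high cells. HLA-DRA, the chain shared by DR molecules, had 648, 654 and 652 CPM in GFP-low FX1, against 1180, 1180 and 1170 in GFP-low DMSO (log2 change -0.85 ± 0.0125). In GFP-high cells it had 716, 707 and 717 CPM with FX1, against 1330, 1330 and 1310 with DMSO (-0.89 ± 0.0123). CD74, the chaperone that CTSS trims, fell by 0.64 ± 0.0108 in GFP-low and 0.89 ± 0.0108 in GFP-high cells on the log2 scale. HLA-DRB1 fell by 0.83 ± 0.0162 in GFP-low and by 1.00 ± 0.0162 in GFP-high cells, HLA-DPB1 by 0.76 ± 0.0191 in GFP-low and HLA-DPA1 by 0.96 ± 0.0169 in GFP-high cells. HLA-DRB5 (-1.02 ± 0.117 in GFP-high cells) is close in sequence to HLA-DRB1 and may share its reads. The changes of HLA-DMA and HLA-DOA were smaller than the list's median and those of HLA-DMB and HLA-DOB larger, in each gate. For HLA-DMB in GFP-low cells the margin was slight, at -0.65 against -0.64.

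CIITA, the coactivator that RFX recruits, changed least among these genes that are named. It had 356, 352 and 350 CPM in GFP-low FX1, against 386, 387 and 390 in GFP-low DMSO (log2 change -0.14 ± 0.0157, edgeR adjusted p = 4.51e-15). In GFP-high cells it had 310, 309 and 301 CPM with FX1, against 359, 351 and 352 with DMSO (-0.21 ± 0.0161, adjusted p = 1.23e-28). The groups did not overlap, yet 82% and 71.9% of all genes had larger absolute changes in GFP-low and GFP-high cells.

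Among 8 other factors at class II promoters, 4 rose and 3 fell in GFP-low, and 5 rose and 1 fell in GFP-high cells. The acetyltransferase genes CREBBP (0.76 ± 0.023 in GFP-low, 0.73 ± 0.0236 in GFP-high, log2) and EP300 (0.33 ± 0.0179 in GFP-low, 0.36 ± 0.0179 in GFP-high) rose. NFYB, an NF-Y subunit, fell by 0.46 ± 0.0552 in GFP-low and 0.35 ± 0.0508 in GFP-high cells, CREB1, which binds the X2 box, fell by 0.43 ± 0.0311 in GFP-low cells, and KAT2B, another acetyltransferase gene, rose by 0.30 ± 0.0424 in GFP-high cells. Of 7 other RFX family genes 5 could be tested, with 2 higher and 2 lower in GFP-low and 3 higher and 1 lower in GFP-high cells. RFX1 rose by 0.45 ± 0.0638 and 0.37 ± 0.0716 in GFP-low and GFP-high cells, RFX2 fell by 0.64 ± 0.104 in GFP-low and 0.90 ± 0.111 in GFP-high cells, and RFX3 fell by 0.30 ± 0.0415 in GFP-low cells. RFX6, called higher in both gates, stayed below 1 CPM on average in every group.

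Of 17 other endolysosomal protease and inhibitor genes 11 were tested, with 7 higher and 1 lower in each gate and a median log2 change of 0.39 in GFP-low and 0.25 in GFP-high cells. Cathepsin D (CTSD) rose by 1.44 ± 0.0397 and 1.36 ± 0.0443 and the carboxypeptidase CTSA by 0.97 ± 0.0364 and 0.72 ± 0.0384, in GFP-low and GFP-high cells. CTSZ rose by 0.74 ± 0.0259 in GFP-low and CTSH by 0.45 ± 0.0242 in GFP-high cells, both cysteine cathepsins like CTSS. CTSV, called lower in GFP-high cells, averaged at most 0.512 CPM in any group. Of 18 genes of the interferon gamma response, to which IFI30 belongs, 16 were tested, with 8 higher and 5 lower in GFP-low and 7 higher and 6 lower in GFP-high cells. The peptide transporter genes TAP1 (0.79 ± 0.036 in GFP-low, 0.72 ± 0.0377 in GFP-high) and TAP2 (0.76 ± 0.0267 in GFP-low, 0.88 ± 0.0261 in GFP-high), which serve class I loading and lie between HLA-DOB and HLA-DMB on the chromosome, rose while HLA-DOB and HLA-DMB fell. The kinase gene JAK1 fell by 0.23 ± 0.0199 in GFP-low cells and the guanylate-binding protein gene GBP4 by 0.92 ± 0.17, and the immunoproteasome gene PSMB10 rose by 1.32 ± 0.105 in GFP-high cells. GBP1, called higher there, averaged at most 0.803 CPM in any group.

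Comparing the gates used the same libraries as the FX1 comparisons, so its values are not independent of them. Under FX1, 7 members were higher and 2 lower in GFP-low cells, where 56.9% of all genes were called, 30.2% higher and 26.7% lower. The libraries of the gates did not overlap for any of the 9, beside 61.1% of all genes. The median log2 difference of the members was 0.19, beside 0.08 over all genes (quartiles -0.22 and 0.40). IFI30 differed most, with 44.7, 39.5 and 43.2 CPM in GFP-low and 28.8, 26.9 and 28 in GFP-high FX1 libraries, a log2 difference of 0.61 ± 0.0457 (edgeR adjusted p = 2.07e-29). RFXAP differed the other way, at -0.51 ± 0.0702 (adjusted p = 1.63e-11), as did CTSS at -0.38 ± 0.0309 (adjusted p = 8.72e-27), and CTSS shrank to -0.12 after removal of the GC and length trend. RFX5 was higher in GFP-low cells by 0.35 ± 0.0227 (edgeR adjusted p = 4.1e-37).

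The editors were all slightly higher in GFP-low FX1 than in GFP-high FX1 cells. The log2 differences were 0.21 ± 0.029 for HLA-DMA, 0.15 ± 0.0371 for HLA-DMB, 0.19 ± 0.0232 for HLA-DOA and 0.31 ± 0.111 for HLA-DOB (edgeR adjusted p = 4.89e-11, 0.000154, 2.14e-14 and 0.0112). The HLA-DOB call was lost without GFP-low FX1 replicate 1 (0.20, edgeR adjusted p = 0.198), and the HLA-DOA value was 0.10 after removal of the GC and length trend. RFXANK, at 0.14 ± 0.0497 (edgeR adjusted p = 0.00914), turned to -0.14 without that trend (adjusted p = 0.0126). Its call was also lost, with values of 0.09 to 0.12, under DESeq2, when mitochondrial and very abundant genes were kept out of the scaling, and without GFP-low FX1 replicate 1, GFP-high FX1 replicate 3 or any of the 3 GFP-high DMSO replicates. For comparison, HLA-DRA was lower in GFP-low FX1 than in GFP-high FX1 cells (-0.13 ± 0.0126), CIITA was higher (0.20 ± 0.0158), and CD74 gave -0.02 ± 0.0108 (adjusted p = 0.118).

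Under DMSO, 4 members were higher and 3 lower in GFP-low cells, where 46.1% of all genes were called, 21.7% higher and 24.4% lower. The gates did not overlap for 8 of the 9, beside 51.6% of all genes. The median of the members was 0.07, beside 0.03 over all genes (quartiles -0.18 and 0.27). RFXANK was higher by 0.39 ± 0.0602 (log2, edgeR adjusted p = 4.48e-09), or 0.23 after removal of the GC and length trend, IFI30 by 0.26 ± 0.0464 (adjusted p = 3.89e-07), RFX5 by 0.19 ± 0.0226 (adjusted p = 1.3e-14) and HLA-DMA by 0.12 ± 0.0277 (adjusted p = 5.5e-05). HLA-DMB was lower by 0.23 on the log2 scale, at 76.6, 76.2 and 76.8 CPM in GFP-low and 87.9, 91.8 and 89.4 in GFP-high DMSO libraries (-0.23 ± 0.0329, edgeR adjusted p = 1.51e-10). The chains of HLA-DM therefore differed in opposite directions between the gates in DMSO, without overlap for either chain. CTSS gave -0.18 ± 0.0353 (adjusted p = 5.36e-06), but -0.03 after removal of the GC and length trend (adjusted p = 0.548).

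RFXAP under DMSO gave -0.19 ± 0.0685 (edgeR adjusted p = 0.0158), a call that was lost with no filter on low counts (-0.17, adjusted p = 0.0586), after removal of the GC and length trend (-0.11, adjusted p = 0.19), without GFP-low DMSO replicate 3 (-0.16, adjusted p = 0.0655) and without GFP-high DMSO replicate 3 (-0.15, adjusted p = 0.113). Neither chain of HLA-DO passed the test between gates in DMSO. HLA-DOA gave 0.05 ± 0.0224 (95% interval 0.00 to 0.09, edgeR adjusted p = 0.0854) with libraries that did not overlap, passing with the stricter filter on counts (adjusted p = 0.00937) and in a fit of the compared groups alone (adjusted p = 0.0323). HLA-DOB gave 0.07 ± 0.0906 (95% interval -0.11 to 0.24, adjusted p = 0.58), and its libraries overlapped. HLA-DRA and CD74 were lower in GFP-low DMSO than in GFP-high DMSO cells (-0.17 ± 0.0121 and -0.27 ± 0.0106), and CIITA was higher (0.13 ± 0.016).

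Non-member lists were split in both gate comparisons. Of the 11 genes in the classical class II list, CD74 and CIITA included, 6 were higher and 2 lower in GFP-low cells under FX1. Under DMSO 4 were higher and 6 lower. Among the tested proteases and inhibitors 3 were higher and 3 lower under FX1, and 2 higher and 5 lower under DMSO. The other factors at class II promoters gave 2 higher and 4 lower under each treatment. Interferon gamma response genes gave 5 higher and 6 lower under each treatment, and other RFX genes 2 higher and 3 lower under FX1 and 1 in each direction under DMSO.

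The series was designed to ask about FX1 upon loss of SMARCA4 protein, a question that the contrast of the FX1 effects in both gates addresses as far as the gates stand for SMARCA4 level. Taking the effect in GFP-low minus that in GFP-high cells, 7 of the 9 members differed, where 31.3% of all genes were called. The value was above 0 for 4 members and below 0 for 3, beside 14.8% and 16.5% of all genes, or 2038 and 3622 genes instead of 2636 and 2947 when mitochondrial and very abundant genes were kept out of the scaling. For HLA-DMB, RFX5, HLA-DOA, CTSS and RFXANK the gates changed in the same direction with FX1 and the change was smaller in size in GFP-low cells, while IFI30 had a fall in GFP-high cells and no detected change in GFP-low cells. HLA-DMB led, with a difference of 0.38 ± 0.0496 (log2, edgeR adjusted p = 5.66e-12), followed by IFI30 at 0.35 ± 0.0653 (adjusted p = 2.15e-06). RFX5 gave 0.16 ± 0.0321 (adjusted p = 8.48e-06), HLA-DOA 0.15 ± 0.0322 (adjusted p = 4.4e-05), CTSS -0.21 ± 0.047 (adjusted p = 9.36e-05) and RFXANK -0.24 ± 0.0782 (adjusted p = 0.00851). The RFX5 value was 0.09 without GFP-high DMSO replicate 1, and the RFXANK value was -0.37 after removal of the GC and length trend, both still past the test.

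RFXAP was the member with a larger fall in GFP-low cells, the difference being -0.33 ± 0.0982 (edgeR adjusted p = 0.00491). For HLA-DMA (0.08 ± 0.0401, 95% interval 0.01 to 0.16, edgeR adjusted p = 0.102) and HLA-DOB (0.24 ± 0.144, 95% interval -0.04 to 0.53, adjusted p = 0.2) a difference between gates was not shown at this depth. HLA-DMA passed with the stricter filter on counts (0.11, edgeR adjusted p = 0.0224). After removal of the GC and length trend, HLA-DOA (0.08, adjusted p = 0.0598) and CTSS (-0.09, adjusted p = 0.153) no longer passed. The difference for CD74 was 0.25 ± 0.0152, for CIITA 0.07 ± 0.0225 and for HLA-DRA 0.04 ± 0.0175 (edgeR adjusted p = 8e-40, 0.00541 and 0.0813).

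Of the 11 genes in the classical class II list, CD74 and CIITA included, 6 gave a difference above 0 and 1 below 0. Among them were HLA-DPA1 at 0.30 ± 0.0241, HLA-DPB1 at 0.20 ± 0.027 and HLA-DRB1 at 0.17 ± 0.023. In the other lists most genes showed none. Those that did were CTSZ (0.33 ± 0.0361), CTSA (0.25 ± 0.0535) and the signal peptide peptidase SPPL2A (-0.46 ± 0.0474), named as the lowest p among 4 called proteases, CREB1 (-0.39 ± 0.0422) and ATF1 (-0.42 ± 0.0843) among 8 promoter factors, and RFX3 (-0.28 ± 0.0584) among 5 RFX genes. Of 16 interferon gamma response genes 2 were called above 0 and 3 below 0, with the proteasome genes PSMB8 at 0.28 ± 0.0548 and PSMB10 at -0.94 ± 0.142 and the receptor gene IFNGR1 at -0.32 ± 0.0378.

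**Figure D4:**
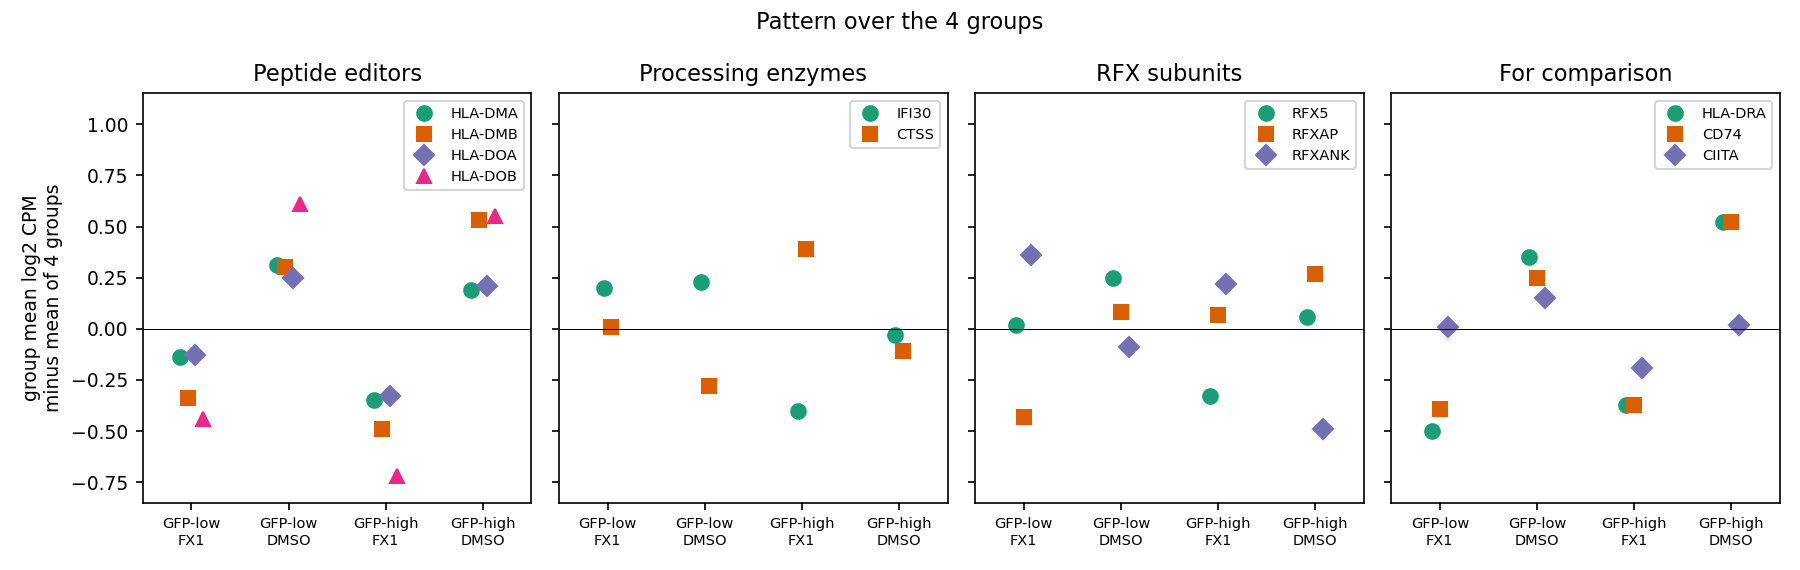
Group mean of log2 CPM minus the mean over the 4 groups, for the members by role and for HLA-DRA, CD74 and CIITA. The peptide editors lie above 0 in both DMSO groups and below 0 in both FX1 groups, as do HLA-DRA and CD74, while each of the RFX subunits has an order of its own.

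Centred over the 4 groups, HLA-DMA and HLA-DOA had the most similar patterns among the members, with a root mean square difference of 0.0329 on the log2 scale, and HLA-DOB and RFXANK the least similar, at 0.881. Within the RFX complex the difference was 0.332 for RFX5 and RFXAP, 0.457 for RFX5 and RFXANK and 0.559 for RFXAP and RFXANK. RFX5 lay nearer to IFI30 (0.105), HLA-DOA (0.108) and HLA-DMA (0.111) than to either partner. Among 8867 genes with a mean of at least 2 on the log2 CPM scale, the nearest pattern to HLA-DMB was that of BCL6 (0.011), the nearest to HLA-DOA was HLA-DQB1 (0.0192) and the nearest to HLA-DMA was ZNF699 (0.0114), followed by PLCG2 (0.0198). HLA-DOB was nearest to FBXO4 (0.0264) and ATP6AP1L, IFI30 to MOV10 (0.0287) and ZNF783, CTSS to NR1D2 (0.00681) and YAE1, RFX5 to TRIB2 (0.0129) and SPACA9, RFXAP to DUS4L (0.0128) and TPT1, and RFXANK to MPV17L2 (0.00859) and UQCR11. The second genes for HLA-DMB and HLA-DOA were SULF1 and APOBEC3G. With 4 groups and 8867 genes, close matches are easy to find, and these distances are descriptions over the same libraries.

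**Figure D5:**
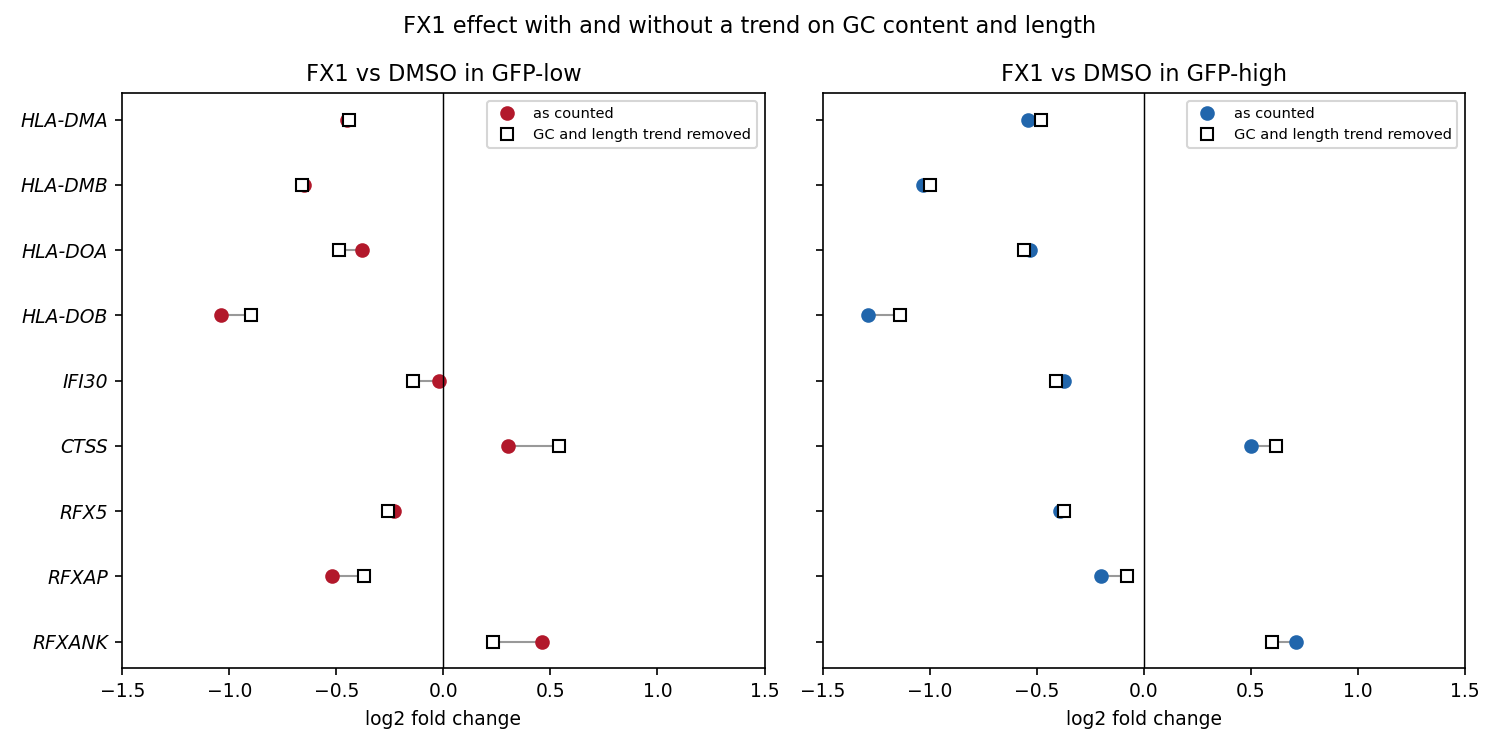
FX1 effect on each gene as counted (filled circles) and with a smooth trend on GC content and transcript length removed from each library (open squares), on the log2 scale, in GFP-low (left) and GFP-high cells (right). HLA-DMA, HLA-DMB and RFX5 hardly moved, while in GFP-low cells CTSS stood at 0.30 and 0.54 and RFXANK at 0.46 and 0.23.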

How the data were processed

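RNA was measured in 12 Raji libraries from ribosomal RNA-depleted total RNA (KAPA RNA HyperPrep with RiboErase), per the labels' protocols. The authors deposited raw read counts per gene. FastQC, STAR, featureCounts of Subread, hg38 and R 4.2.1 are named in the submitters' processing notes, while other versions, the annotation release and the strand setting are not given in the sources used here. Of 60710 lines, 3 formed a broken record and were left out, and 60506 of the 60707 genes used (99.7%) had a symbol.

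The test was edgeR 4.0.16, run in R 4.3.3 (filterByExpr, 17859 genes, TMM, robust quasi-likelihood fit of 4 groups, 8 residual degrees of freedom), adjusted by Benjamini and Hochberg over those genes, with 0.05 as threshold. That fit draws on the spread of other genes as well, so the p-values do not rest on the 8 residual degrees of freedom alone. Each SE is the absolute log2 change divided by the square root of edgeR's F statistic. Intervals are the estimate ± 1.96 SE, and so rest on that same test. CPM are TMM-scaled and compare groups, and TPM use the exon lengths in the table and compare genes within a group. Reads carry no molecular identifiers, so PCR copies count as separate reads. The fit was also run on simulated counts in which few genes changed, in GFP-low FX1 alone. The real FX1 comparisons called most genes, a setting which that simulation did not cover.

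Members, lists and tests were chosen with earlier results of these data known. Members were always named, with HLA-DRA, CD74 and CIITA. From each other list, per FX1 comparison and for the difference between gates, up to 3 called genes with the lowest p and up to 3 with the largest change were named, and gate comparisons give counts. Promoter sequences are from RefSeq (GRCh38.p14), which matched 8 of the 9 members and not CTSS. Alternatives were DESeq2 size factors, DESeq2 1.42.0, no filter, at least 50 counts in 3 libraries, the compared groups alone, a replicate block, a scaling without 37 genes that are mitochondrial or exceed 1% of a library, removal of a GC and length trend fitted with mgcv 1.9.3 (17557 genes, 98.3%), a 1.5-fold floor (glmTreat) and leaving out each library.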

Additional observations from a re-analysis of the deposited data

Results flagged for a closer look

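The FX1 effect differed between the gates for 7 of the 9 genes by edgeR's test of the difference itself (GFP-low minus GFP-high, log2). That test called 31.3% of all 17859 genes. HLA-DMB gave 0.38, from a change of -0.65 in GFP-low and -1.03 in GFP-high cells. For IFI30 it was 0.35, from -0.02 in GFP-low and -0.37 in GFP-high cells, and for RFX5 0.16, from -0.23 in GFP-low and -0.39 in GFP-high cells. HLA-DOA gave 0.15, from -0.38 in GFP-low and -0.53 in GFP-high cells. CTSS gave -0.21, from 0.30 in GFP-low and 0.50 in GFP-high cells, and RFXANK gave -0.24, from 0.46 in GFP-low and 0.71 in GFP-high cells. RFXAP gave -0.33, from -0.52 in GFP-low and -0.20 in GFP-high cells. None of these 7 differences passed a floor of 1.5-fold with glmTreat, and DESeq2, which tests against no floor, called the same 7 as edgeR did.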

How the results depend on the processing

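Over the 45 tests of members (9 genes in 5 comparisons), DESeq2 size factors and the replicate block each left every call and direction as it was. Deviations of same-numbered libraries correlated at -0.037 to 0.0177. With 3 libraries per group and spread that may be technical, these values cannot settle whether same-numbered libraries shared a culture or day. In order, the comparisons are FX1 in GFP-low, FX1 in GFP-high, GFP-low against GFP-high under FX1, the same under DMSO, and the FX1-effect difference. The replicate block gave 8, 9, 9, 7 and 7 members called. Against a floor of 1.5-fold the counts were 1, 3, 0, 0 and 0 members and 3606, 3674, 728, 199 and 151 genes in that order. Leaving out each library gave 8 to 8, 8 to 9, 7 to 9, 6 to 7 and 7 to 7 members, and 11440 to 12287, 11475 to 12378, 9387 to 10205, 7451 to 8275 and 5167 to 5433 genes. IFI30 with FX1 in GFP-low cells ranged from -0.07 to 0.04 over these, the sign turning without GFP-low FX1 replicate 2. Removing the GC and length trend turned RFXANK under FX1 between gates to -0.14, with or without the replicate block, and changed 7 of 45 calls or directions in all; the cause was not tested. DESeq2 lost 1 call, and the scaling without abundant genes lost 1. The stricter filter, which tests fewer genes, added 2 calls.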
